A study of Mus musculus with 4 samples.

Results

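Lipoprotein scavenger receptors are cell-surface proteins that bind modified or native lipoproteins and carry them, or the lipid they hold, into the cell. They were followed here by name: Cd36, Msr1, Olr1, Lrp1, Scarf1, Marco, Vldlr, Stab1 and Scarb1, which are 9 of the 32285 genes counted in each library. The rule that defines them is this list of names and uses no measured value, and the list was drawn up with earlier results of these data known. Single-cell RNA-seq libraries (10x Genomics 3' chemistry, in which each captured molecule carries a unique molecular identifier, or UMI) were made from dissociated mouse aortas. There were 4 groups with 1 library each: WT mice on normal diet, LysM-DKO mice on normal diet, WT/ApoE-/- mice on western diet, and LysM-DKO/ApoE-/- mice on western diet. Values for the 4 libraries are given in that order throughout. The series title names epsins, the endocytic adaptor proteins encoded by Epn1 and Epn2, and LysM is the older name of Lyz2, whose promoter is widely used to drive Cre in macrophages, monocytes and neutrophils; DKO is not spelled out in the labels, nor are age, sex or the number of animals in a library. ApoE-/- marks loss of apolipoprotein E, which makes mice prone to atherosclerosis. The western diet was given only with ApoE-/-, so diet and ApoE genotype cannot be told apart.

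Scavenger receptors fall into structural classes. Msr1 and Marco are class A receptors of macrophages with collagen-like stalks, Cd36 and Scarb1 are class B receptors with a loop held by a membrane span at each end, Olr1 is the lectin-like receptor for oxidized LDL first described in endothelium, and Scarf1 and Stab1 are endothelial and macrophage receptors with many EGF-like repeats. Lrp1 and Vldlr belong to the LDL receptor family and are taken up through clathrin-coated pits, the route on which epsins act. In an atherosclerotic artery, macrophages that take up modified LDL through several of these receptors store it as cholesteryl ester and become foam cells, whereas Scarb1 exchanges cholesterol with HDL and Cd36 also takes up fatty acids in capillary endothelium.

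Of 13831, 15826, 29724 and 11414 barcodes deposited for the 4 libraries, 7758, 8230, 13744 and 8133 passed a minimum of 1000 UMIs and a limit of 10% on the mitochondrial share and were kept, with median depths of 4167, 3404, 2103 and 6761 UMIs. Cells were placed in 6 classes by summed UMIs of defining genes that include none of the 9 receptors: C1qa, C1qb and C1qc for macrophages (92, 208, 939 and 135 barcodes), Cd79a and Ms4a1 for B cells, Cd3d, Cd3e and Trac for T cells, Pecam1 and Cdh5 for endothelium, Pdgfra and Serpinf1 for fibroblasts, and Myh11 and Cnn1 for smooth muscle. All 5 further macrophage markers (Adgre1, Csf1r, Cd14, Fcgr1 and Mrc1) were detected in the macrophage class of every library, and they summed to 3185, 2954, 1577 and 2458 CPM. The WT/ApoE-/- western diet library, the lowest of the 4, also had the most barcodes near the threshold, with 113 macrophages at exactly 5 C1q UMIs and 155 barcodes 1 UMI under it, against 0 to 4 and 1 to 10 in the other libraries. The endothelial class was mixed: 71.7 to 87.8% of its barcodes also met the threshold of another class, and its smooth muscle marker RNA (Acta2, Tagln, Mylk and Myl9) summed to 16819 to 23637 CPM (the UMIs of a gene scaled to a common total for each sum), against 1641 to 3981 CPM in endothelial barcodes of a single class. In macrophages 37.0 to 63.9% of barcodes met several thresholds. The shares were 21.3 to 69.4% in B cells, 23.2 to 71.3% in T cells and 27.7 to 44.6% in fibroblasts. Levels or differences without such barcodes are therefore given beside several of the results they touch, and no doublet caller was run. Between 38 and 129 barcode sequences were shared by any pair of libraries. Xist stood at 950 and 950 CPM in the normal-diet libraries and 0.636 and 0.563 CPM in the western-diet libraries. The Y-linked genes Ddx3y, Eif2s3y, Uty and Kdm5d ran the other way, summing to 0.0982, 0.132, 185 and 193 CPM. By these genes the normal-diet libraries read as female and the western-diet libraries as male, though the labels give no sex. Sex thus goes with diet in every library and cannot be told apart from it. In macrophages Apoe was at 7012, 5435, 8.44 and 8.55 CPM, Epn1 at 81.7, 54.5, 52.4 and 42.7 CPM, Epn2 at 35.6, 33.6, 33.2 and 15.7 CPM, and Lyz2 at 3696, 977, 4126 and 798 CPM. Which parts of Epn1 and Epn2 were deleted is not given in the labels, so a 3' tag outside them would not show the deletion.

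Each receptor was placed by its level in the 6 classes, given as CPM with exact Poisson 95% intervals that cover counting error only. Each molecule gives 1 tag whatever its length, so CPM was compared between genes without division by length. Differences between classes were tested over 24 library-by-class sums with edgeR's quasi-likelihood test and Benjamini-Hochberg adjustment over 13354 genes within each of the 15 class pairs. The labels do not say whether a library came from 1 animal or several, and its spread includes genotype and diet. Marco had too few UMIs to enter the fit. The other 8 receptors gave 120 tests, of which 68 had an adjusted p under 0.05 in edgeR's test, counting either direction. Calls were common over all genes too. The fewest were between endothelium and smooth muscle, with 5.9% of genes higher in endothelium and 2.82% in smooth muscle. The most were between B cells and endothelium, with 30.4% higher in B cells and 32.7% in endothelium. The 68 calls are therefore not read as a trait of the receptors. Between macrophages and B cells, T cells, endothelium, fibroblasts and smooth muscle, 20.6, 21.5, 25.2, 23.2 and 25.1% of all genes tested were higher in macrophages. The share of genes higher in the lymphocyte class of a pair was 18.4 and 19.9% for B cells and T cells against macrophages, 30.4, 29.6 and 29.1% for B cells and 29.9, 29.4 and 28.6% for T cells against endothelium, fibroblasts and smooth muscle, and 6.83 and 8.37% for B and T cells against each other. The receptors gave 2 calls of that kind, Cd36 being higher in B cells than in fibroblasts (log2 1.51, adjusted p = 0.0237) and than in smooth muscle (1.26, adjusted p = 0.0267). In single-class barcodes the difference from smooth muscle was 0.40 (adjusted p = 0.459).

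**Figure D1:**
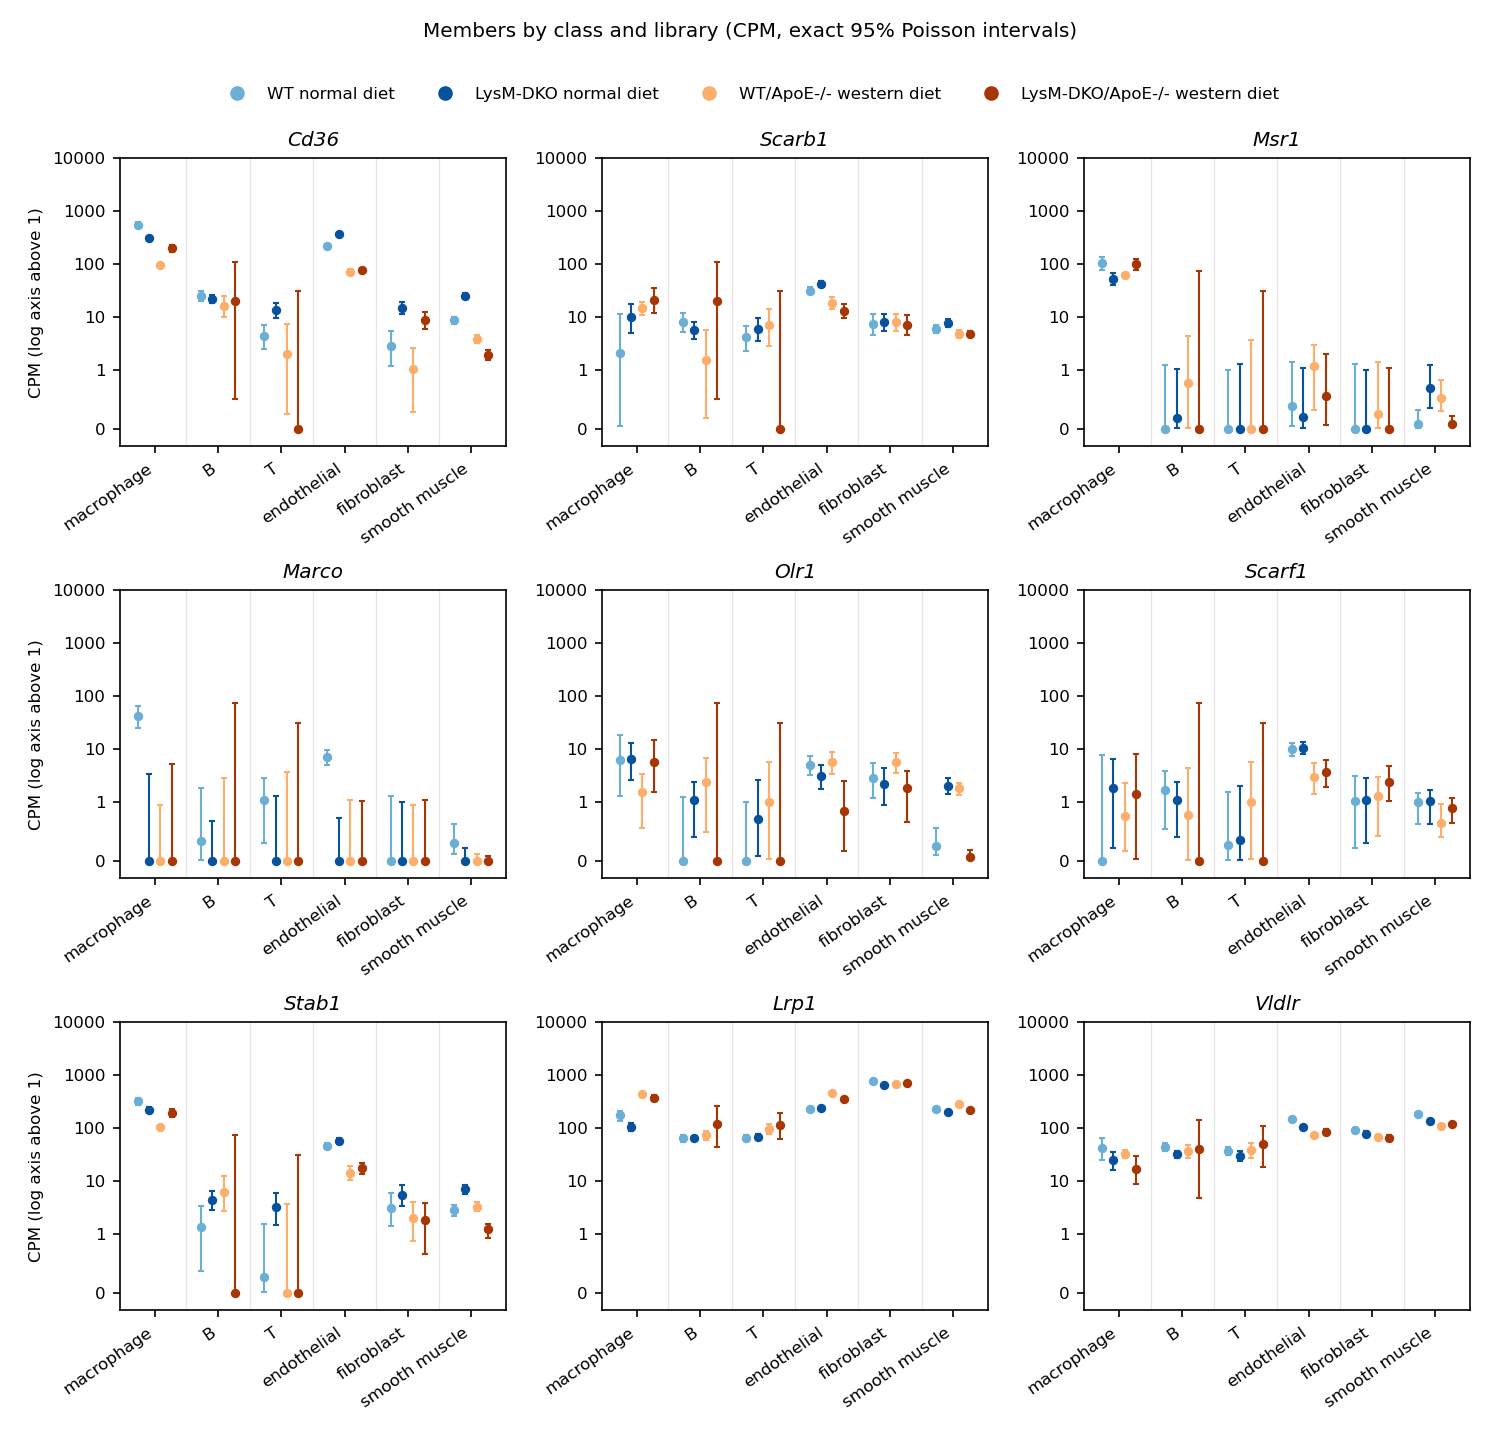
Levels of the 9 receptor genes in 6 cell classes of the mouse aorta. Each panel is 1 gene, the horizontal axis gives the class, the vertical axis gives CPM (log scale above 1), points are the 4 libraries and bars are exact Poisson 95% intervals. Msr1 points are high only in the macrophage class (52.7 to 105 CPM), Lrp1 points are highest in fibroblasts (662 to 774 CPM), and Marco has UMIs only in the WT normal diet library.

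Msr1, the class A receptor for acetylated and oxidized LDL, was found mainly in macrophages. Its levels there were 105, 52.7, 61.4 and 99.7 CPM, from 50, 58, 240 and 70 UMIs. In each of the other 5 classes it was at 1.18 CPM or lower in every library, and no UMI was seen in the T cells of any library. The macrophage values did not overlap those of any other class. Msr1 was higher in macrophages than in each of the other 5 classes by edgeR's test, with a log2 difference from endothelium of 7.51 (SE 0.55, adjusted p = 1.55e-09). The macrophage class held 87.7, 73.4, 83.0 and 90.9% of the Msr1 UMIs of all kept barcodes. Msr1 lies at chr8:39581685-39642673 on the minus strand of GRCm38 and overlaps no other annotated gene.

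Marco, the other class A receptor which binds bacteria as well as modified LDL, was found in a single library. Over all barcodes the WT normal diet library held 156 Marco UMIs in 43 barcodes, and the other 3 libraries held 0. A single barcode carried 45 of the 156 UMIs. Among kept macrophages there were 20 UMIs, 19 of them in 1 barcode, which gave 41.9 CPM (95% interval 25.6 to 64.7). The endothelial class of the same library held 36 UMIs, 30 of them in 1 barcode that also passed the threshold for lymphatic markers. The WT normal diet value was 15.4, 54.6 and 9.80 times the level of 3 counts in macrophages of the other libraries (2.73, 0.767 and 4.27 CPM). These ratios use the 41.9 CPM itself and not the lower end of its interval, so they are not lower bounds. No Marco UMI lay in macrophage barcodes that met the threshold of 1 class alone, so the difference rests on a few barcodes of 1 library. Marco maps to chr1:120474538-120505024 on the minus strand.

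Cd36, the class B receptor for oxidized LDL and long-chain fatty acids, was high in both macrophages and endothelium. In macrophages it stood at 551 (486 to 622), 312 (280 to 347), 97.2 (87.6 to 107) and 198 (167 to 234) CPM. The 4 intervals did not overlap, and the WT normal diet library was the highest and the WT/ApoE-/- western diet library the lowest. Endothelial levels were 219, 375, 72.4 and 76.0 CPM. In the other 4 classes Cd36 stayed between 0 and 25.5 CPM. By edgeR's test Cd36 was higher in macrophages than in each of the other 5 classes and higher in endothelium than in B cells, T cells, fibroblasts and smooth muscle. Of all genes tested, 32.7, 32.2, 9.23 and 5.9% were higher in endothelium in those last 4 pairs.

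The order of macrophages and endothelium for Cd36 was not firm. The log2 difference was 1.16 in favour of macrophages (SE 0.38, adjusted p = 0.0137 by edgeR's quasi-likelihood test). Among barcodes of a single class, macrophages stood at 579, 492, 138 and 252 CPM and endothelium at 743, 1023, 270 and 524 CPM, endothelium being higher in all 4 libraries, and the log2 difference turned to -0.54 (adjusted p = 0.192). The call was also lost without the WT normal diet library (log2 0.75, adjusted p = 0.186) and without the LysM-DKO/ApoE-/- western diet library (log2 0.96, adjusted p = 0.0527). Endothelium carried the larger part of the Cd36 UMIs of kept barcodes in 3 libraries (62.0, 61.8 and 47.1%), and macrophages did in the WT/ApoE-/- western diet library (45.8% against 29.6%).

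Endothelial Cd36 lay in the capillary barcodes. Endothelial barcodes with at least 2 UMIs of Gpihbp1, Car4, Cd300lg, Btnl9 and Aqp7, genes of capillary endothelium, numbered 123, 179, 19 and 8. Their Cd36 levels were 2126, 2567, 1138 and 4134 CPM. Lymphatic barcodes, with at least 2 UMIs of Prox1, Mmrn1 and Ccl21a, numbered 42, 98, 5 and 13 and stood at 154, 56.2, 226 and 15.5 CPM. The remaining 567, 603, 370 and 396 endothelial barcodes stood at 31.8, 49.2, 21.2 and 23.2 CPM. Capillary values were above both other endothelial values in each of the 4 libraries, and 171 and 189 UMIs lie behind them in the western-diet libraries. These 3 sets of endothelial barcodes were compared by value only.

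Stab1, a large receptor for acetylated LDL and for matrix fragments that marks resident macrophages and lymphatic and sinusoidal endothelium, was highest in macrophages. It stood at 320, 224, 106 and 197 CPM there and at 46.9, 57.8, 14.5 and 17.5 CPM in endothelium. The values of these classes did not overlap. Stab1 was higher in macrophages than in each of the other 5 classes, and the log2 difference from endothelium was 3.13 (SE 0.33, adjusted p = 5.95e-08 by edgeR's test). In single-class barcodes that difference was 1.56 (adjusted p = 0.00025), with endothelium at 114, 119, 73.0 and 104 CPM. Within endothelium Stab1 was at 371, 438, 302 and 264 CPM in lymphatic barcodes, against 75.4, 31.9, 19.96 and 87.5 CPM in capillary and 24.2, 21.5, 11.8 and 11.9 CPM in the remaining barcodes. The lymphatic values were above the others in every library, the reverse of the order seen for Cd36. Stab1, at chr14:31139013-31168641 on the minus strand, overlaps Nt5dc2 on the opposite strand, and whether the counting used strand is not given in the sources used here.

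**Figure D2:**
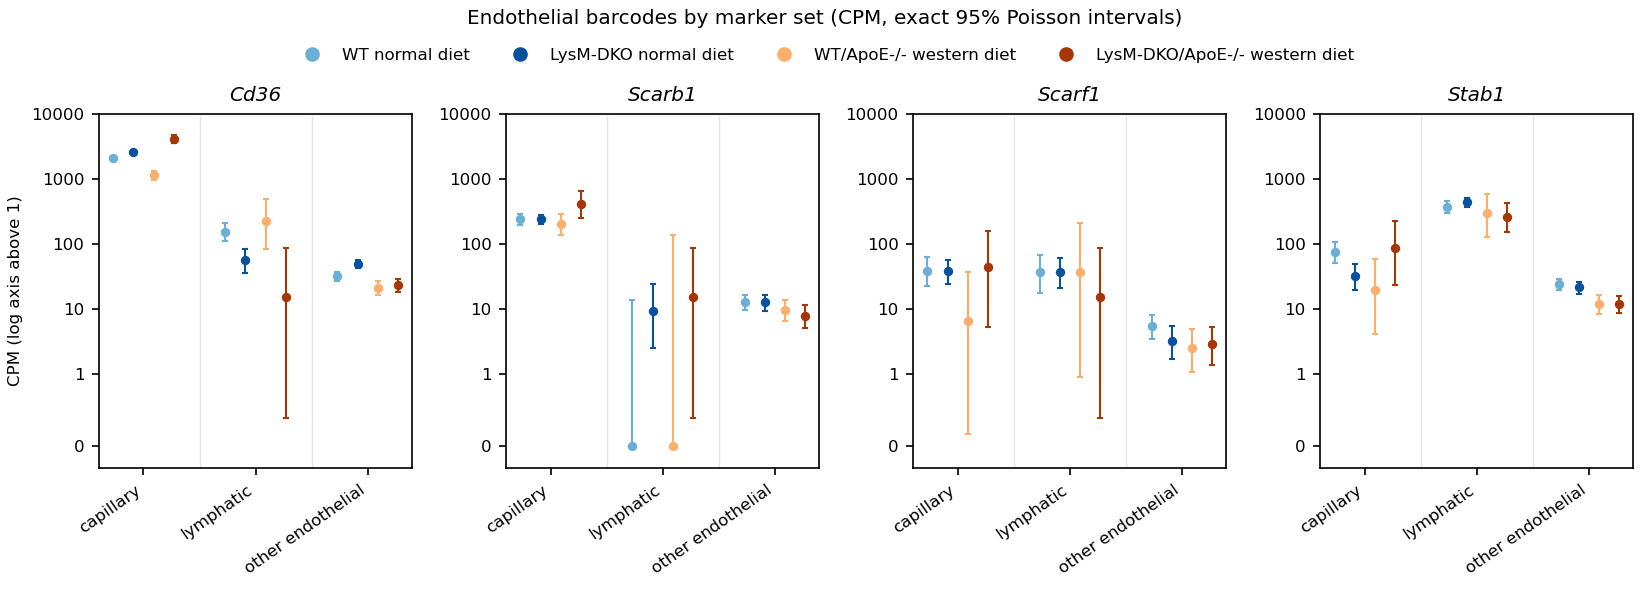
Cd36, Scarb1, Scarf1 and Stab1 in capillary, lymphatic and other endothelial barcodes. The vertical axis gives CPM (log scale above 1), points are the 4 libraries and bars are exact Poisson 95% intervals. Cd36 is highest in capillary barcodes (1138 to 4134 CPM) and Stab1 in lymphatic barcodes (264 to 438 CPM).

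Cd36 and Stab1 were also the receptors whose levels ran most alike over the 24 sums, and the bases before their transcription starts are shown for that reason. The windows are the 250 bases before the RefSeq start on GRCm38.p6, both on the minus strand, at chr5:17835897-17836146 for Cd36 and chr14:31168642-31168891 for Stab1. Capitals mark the letters TGCTGA, part of a site of bZIP transcription factors, and GAGGAA, a core bound by PU.1, which regulates macrophage genes. The Cd36 start is 1 of several and lies inside the span of the gene.
Cd36: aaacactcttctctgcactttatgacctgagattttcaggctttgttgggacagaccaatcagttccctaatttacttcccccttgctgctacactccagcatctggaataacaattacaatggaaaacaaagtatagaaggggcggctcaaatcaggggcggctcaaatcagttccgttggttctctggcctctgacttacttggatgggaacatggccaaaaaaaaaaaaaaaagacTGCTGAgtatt
Stab1: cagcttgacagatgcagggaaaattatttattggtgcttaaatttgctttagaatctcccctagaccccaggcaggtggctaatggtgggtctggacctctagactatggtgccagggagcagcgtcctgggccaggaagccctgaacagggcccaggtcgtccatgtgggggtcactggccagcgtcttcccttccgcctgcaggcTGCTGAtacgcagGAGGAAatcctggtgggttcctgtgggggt
The TGCTGA letters begin at position -11 from the start site in Cd36 and at -43 in Stab1, and the PU.1 box begins at -30 in Stab1. No GAGGAA is in the Cd36 window on either strand. Over 32851 RefSeq windows of 300 bases (250 before and 50 after the start), 19.5% hold TGCTGA and 28.3% hold GAGGAA on either strand, so neither match is rare. Of the other 4 receptors with a window in the table, Marco holds GAGGAA at -146, Olr1 at -76 and Vldlr, in 1 of its 2 windows, at -171, the last 2 genes on the opposite strand, and Lrp1 holds neither motif. A TGANTCA site of AP-1 (7.81% of windows) was found in Olr1 alone, at -60, and the AGGTCA hexamer bound by nuclear receptors such as PPARs (16.3% of windows) in Olr1 at -175 and, on the opposite strand, in Cd36 at -228. A match describes letters and was not tied to binding.

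Macrophages were next split by markers of foam cells and of resident macrophages. Barcodes with at least 2 UMIs of Trem2 and Gpnmb and under 2 of Lyve1 and Folr2 are called foamy here, and those with the reverse are called resident. Foamy barcodes numbered 9, 16, 402 and 45 (9.78, 7.69, 42.8 and 33.3% of macrophages) and resident barcodes 34, 64, 21 and 39 (37.0, 30.8, 2.24 and 28.9%). The cut is a range of a score and not a type: 14, 25, 188 and 26 macrophages sat 1 UMI under the foamy threshold and 7, 13, 95 and 11 exactly on it. Another 4, 10, 66 and 8 macrophages met both thresholds and 45, 118, 450 and 43 met neither. Foamy and resident sums of at least 10 barcodes were compared by edgeR's quasi-likelihood test, which left out the foamy sum of the WT normal diet library and used 3 foamy and 4 resident sums.

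Cd36 was lower in foamy than in resident macrophages. Its resident levels were 641, 554, 629 and 482 CPM, and its foamy levels were 164, 119, 89.2 and 109 CPM. Every resident value was above every foamy value. The log2 difference was -2.37 (SE 0.26, 5.19-fold lower in foamy, adjusted p = 6.97e-05 by edgeR's quasi-likelihood test). In single-class barcodes the resident levels were 752, 704, 701 and 620 CPM and the foamy levels 173, 68.4, 114 and 144 CPM. Of the 2933 genes tested, 8.97% were higher and 12% lower in foamy macrophages.

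Stab1 had the same order. Its resident levels of 474, 423, 438 and 575 CPM lay above its foamy levels of 164, 119, 98.6 and 80.2 CPM without overlap. The log2 difference was -2.25 (SE 0.28, 4.75-fold lower in foamy, adjusted p = 0.000156). Macrophages that met both thresholds were in between or higher, at 282, 583, 144 and 357 CPM.

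Msr1 differed little between the subsets. It stood at 82.0, 63.6, 76.7 and 103 CPM in foamy and 108, 82.6, 82.1 and 102 CPM in resident macrophages, and the ranges overlapped. The log2 difference was -0.10 (SE 0.35, adjusted p = 0.861 by edgeR's test), an error that leaves room for a moderate difference in either direction. Lrp1 had its higher values in foamy macrophages, at 424, 95.4, 502 and 518 CPM against 180, 117, 301 and 135 CPM in resident ones, with the LysM-DKO normal diet foamy sum of 16 barcodes apart from the other 3. Its log2 difference of 0.91 (SE 0.35) did not pass the threshold (adjusted p = 0.0898). It passed in single-class barcodes (log2 1.36, adjusted p = 0.0212) and without the LysM-DKO normal diet library (log2 1.37, adjusted p = 0.00927). The other 5 receptors had too few UMIs in these sums to be tested.

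**Figure D3:**
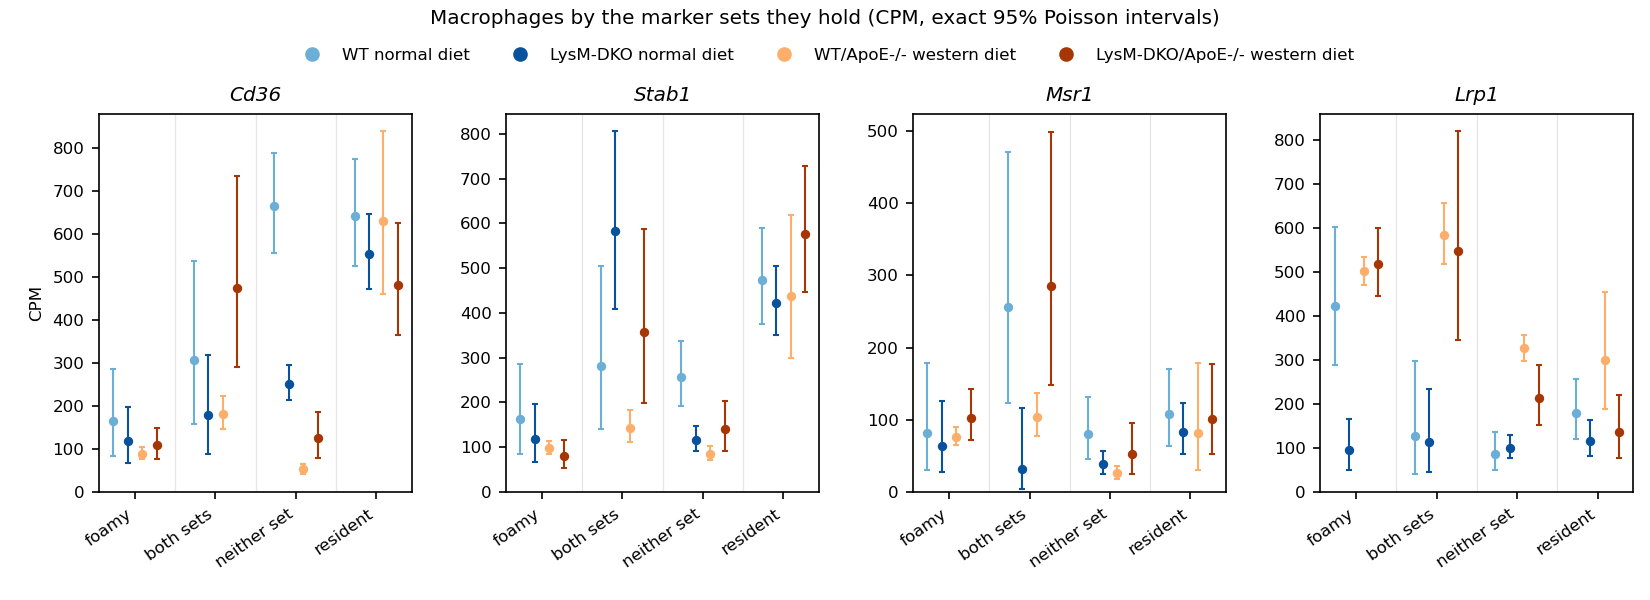
Cd36, Stab1, Msr1 and Lrp1 in macrophages split by foam cell and resident markers. The vertical axis gives CPM on a linear scale, points are the 4 libraries and bars are exact Poisson 95% intervals. The resident points of Cd36 (482 to 641 CPM) and Stab1 (423 to 575 CPM) lie above all foamy points of the same gene, and those of Msr1 do not.

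Among 15 lipid handling genes, 13 were tested between foamy and resident macrophages, 5 were higher in foamy, 0 were lower, and the median log2 difference was 0.95 against 0.00 over all genes. The 5 were Fabp5, a fatty acid carrier (log2 5.58), Abcg1, a cholesterol exporter to HDL (4.07), Lpl, which splits triglyceride (2.03), Lipa, the lysosomal lipase (1.56), and Soat1, which makes cholesteryl ester (1.22). Fabp5 is also among the checks used for the foamy label. Of 12 other scavenger receptors 6 were tested. Cxcl16, which binds oxidized LDL, and Cd68 were higher in foamy (log2 2.40 and 0.93), while Cd163, Mrc1 and Colec12 were lower (-5.69, -4.12 and -1.93), with a median of -0.88. Of 18 genes of the LDL receptor family and its partners 5 were tested, and Lrp6 and Mylip, a ligase that marks receptors of the family for degradation, were lower (-2.50 and -1.20), with a median of -0.12. Of 12 regulators 6 were tested, 4 were lower and 0 were higher, with a median of -1.16. Klf4, Klf2 and Cebpb were among those lower (-1.95, -1.58 and -0.74). Of the 4 label genes 3 were tested and Apoe was lower (-1.10). The foamy sum of the LysM-DKO normal diet library (16 barcodes) was the only one tested from mice not labelled ApoE-/-. The other foamy sums came from ApoE-/- libraries, in which little Apoe RNA was counted in macrophages. These lists were drawn up with earlier results of these data known.

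Scarb1, the HDL receptor, was highest in endothelium. Endothelial levels were 31.7, 42.2, 18.3 and 13.2 CPM, and macrophage levels were 2.09, 9.99, 14.6 and 21.4 CPM, from 1, 11, 57 and 15 UMIs. The ranges overlapped, because the LysM-DKO/ApoE-/- western diet library had more in macrophages than in endothelium. Scarb1 was higher in endothelium and in macrophages than in each of B cells, T cells, fibroblasts and smooth muscle by edgeR's test, but these calls fell from 8 to 4 without the WT/ApoE-/- western diet library. Endothelium and macrophages did not pass the threshold against each other (log2 -0.56 for macrophages over endothelium, adjusted p = 0.197). Without the LysM-DKO/ApoE-/- western diet library endothelium was higher (log2 0.98, adjusted p = 0.0372), as it was in single-class barcodes (log2 1.58, adjusted p = 0.00226), where endothelium stood at 79.4, 91.5, 24.3 and 59.0 CPM. Capillary barcodes held 240, 243, 206 and 416 CPM, lymphatic barcodes 0, 9.36, 0 and 15.5 CPM, and other endothelial barcodes 12.8, 12.7, 9.66 and 7.84 CPM. Capillary Scarb1 was thus above the other endothelial values in every library, the order also seen for Cd36.

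Scarf1, an endothelial receptor for acetylated LDL, was a low gene that was higher in endothelium than in each of the other 5 classes. Its endothelial levels were 10.0, 10.6, 2.95 and 3.66 CPM, from 51, 54, 10 and 13 UMIs. In macrophages it was at 0, 1.82, 0.767 and 1.42 CPM. The log2 differences were 1.98 from fibroblasts (SE 0.39, adjusted p = 0.000489) and 2.67 from smooth muscle (adjusted p = 3.27e-06), and 22.3% of genes were higher in endothelium than in macrophages. Scarf1 was at 38.8, 38.0, 6.65 and 43.7 CPM in capillary barcodes, 37.4, 37.4, 37.7 and 15.5 CPM in lymphatic barcodes, and lower in the rest of the endothelium (5.49, 3.25, 2.49 and 2.91 CPM). Capillary and lymphatic values lay close together in the normal-diet libraries, and the western-diet values rest on 1 or 2 UMIs each and give no order.

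Olr1, the lectin-like oxidized LDL receptor, was near the detection limit in every class. It stood at 6.28, 6.36, 1.53 and 5.70 CPM in macrophages, from 3, 7, 6 and 4 UMIs, at 4.92, 3.14, 5.61 and 0.845 CPM in endothelium and at 2.81, 2.18, 5.63 and 1.81 CPM in fibroblasts. These ranges overlapped. Macrophages, endothelium and fibroblasts were each higher than T cells and smooth muscle, and endothelium was also higher than B cells, by edgeR's test. Each of these 7 calls was lost when the WT normal diet library was left out.

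Lrp1, a large endocytic receptor with many ligands including remnant lipoproteins, was found in all classes and was highest in fibroblasts. Fibroblast levels were 774, 662, 690 and 722 CPM. Macrophages stood at 174, 105, 444 and 372 CPM, endothelium at 229, 241, 465 and 360 CPM, and smooth muscle at 228, 198, 290 and 217 CPM. B cells and T cells were lower, at 64.0 to 120 CPM and 65.8 to 116 CPM. Their log2 differences from smooth muscle were -1.60 and -1.46, and -2.67 and -2.34 in single-class barcodes. Fibroblast values did not overlap those of the other classes. Lrp1 was higher in fibroblasts than in each of the other 5 classes, with log2 differences of 1.37 from endothelium (SE 0.22, adjusted p = 5.53e-05) and 1.30 from macrophages (SE 0.22, adjusted p = 4.74e-05). Of all genes tested, 22% were higher in fibroblasts than in macrophages, 12.6% than in endothelium, 17.6% than in smooth muscle, 31.2% than in B cells and 31% than in T cells. Macrophages, endothelium and smooth muscle did not differ past the threshold among themselves. Single-class endothelium stood at 136, 98.9, 468 and 427 CPM. Lrp1, at chr10:127538161-127621148 on the minus strand, is overlapped by the antisense gene Gm16217.

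Vldlr, the receptor for triglyceride-rich lipoproteins and reelin, was highest in smooth muscle. Smooth muscle levels were 185, 137, 111 and 119 CPM, fibroblast levels were 90.7, 77.8, 66.8 and 64.4 CPM, and macrophage levels were 41.9, 24.5, 33.0 and 17.1 CPM. None of these ranges overlapped. Smooth muscle held 75.2, 65.6, 79.4 and 90.7% of the Vldlr UMIs of kept barcodes. By edgeR's test Vldlr was higher in smooth muscle than in each of the other 5 classes, where 33.4, 33.3, 26, 17 and 2.82% of genes were higher in smooth muscle than in B cells, T cells, macrophages, fibroblasts and endothelium. The difference from endothelium, at 148, 103, 73.0 and 86.4 CPM, was the smallest (log2 0.61, SE 0.14, adjusted p = 0.00486) and was lost without either normal-diet library (adjusted p = 0.106 without WT and 0.0887 without LysM-DKO). In single-class barcodes endothelium stood at 20.4, 18.5, 21.6 and 13.9 CPM and the difference was 2.97 (adjusted p = 5.6e-09). Single-class macrophages stood at 22.3, 19.1, 6.09 and 7.89 CPM.

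The receptors were also compared between genotypes and diets within macrophages. With 1 library per group there is no test. Log2 ratios (0.5 UMIs added to each side) are given with exact binomial 95% intervals that cover counting error only. A gene counts as measured with 20 or more UMIs over the libraries compared, and as past the fold at 2-fold or more. A genotype ratio and a diet ratio always share a library, so no relation between these kinds is read. Directions of ratios of the same kind are set beside each other without a test.

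For LysM-DKO over WT on normal diet, 6 receptors were measured in macrophages, 0 were past the fold upward and 1, Marco, was past it downward, where 6.55% of all measured genes were past it upward and 2.39% downward. The log2 ratio was -0.82 for Cd36 (-1.05 to -0.58), -0.99 for Msr1 (-1.56 to -0.42), -0.52 for Stab1 (-0.81 to -0.21), -0.72 for Lrp1 (-1.14 to -0.30) and -0.78 for Vldlr (-1.66 to 0.14). All were on the lower side, with a median of -0.80 against 0.05 over all genes. Some marker RNA of other cell types differed between these macrophages. Erythroid markers (Hba-a1, Hbb-bs and Alas2) summed to 149 CPM in WT, with 2 of 3 detected, and 3146 CPM in LysM-DKO, with 3 of 3. Adipocyte markers (Adipoq, Plin1, Cidec, Cfd and Lep) summed to 2.09 and 36.3 CPM, with 1 and 4 of 5 detected. The B cell genes Cd79b and Ighm, a pair chosen after their values were seen, summed to 121 and 1123 CPM. Fibroblast markers were at 507 and 376 CPM and neutrophil markers at 4.19 and 2.73 CPM. Their part in the ratios was not tested. In macrophages of a single class Cd36 stood at 579 and 492 CPM.

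On western diet the ratios of LysM-DKO/ApoE-/- over WT/ApoE-/- were above 0 for Cd36, Msr1 and Stab1, whose normal-diet ratios were below it. The log2 ratio was 1.03 for Cd36 (0.74 to 1.31), 0.90 for Stab1 (0.61 to 1.18), 0.71 for Msr1 (0.30 to 1.09) and 0.59 for Scarb1 (-0.37 to 1.39; not measured on normal diet), and it was -0.25 for Lrp1 (-0.45 to -0.07) and -0.89 for Vldlr (-1.94 to -0.09). Of 6 measured receptors 1, Cd36, was past the fold upward and 0 downward, beside 4.1 and 9.1% of all genes. In single-class macrophages 0 were past it, with Cd36 at 138 and 252 CPM. The make-up of the macrophages differed with these ratios: resident barcodes made up 2.24% of macrophages in WT/ApoE-/- and 28.9% in LysM-DKO/ApoE-/-. Fibroblast marker RNA in macrophages was at 2621 and 507 CPM in the same order, smooth muscle marker RNA at 8101 and 4782 CPM, and chondrocyte marker RNA (Acan, Col2a1 and Chad) at 114 and 21.4 CPM, all markers of the 3 lists being detected, and its part in the ratios was not tested. Within resident barcodes the log2 ratio of Cd36 was -0.39 and that of Stab1 0.38, and within foamy barcodes they were 0.30 and -0.28. The 4 intervals each include 0, from 21 and 39 resident and 402 and 45 foamy barcodes. Within either subset no genotype difference of these genes was thus clear of counting error. Among macrophages with neither marker set, Cd36 remained at a log2 ratio of 1.26.

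**Figure D4:**
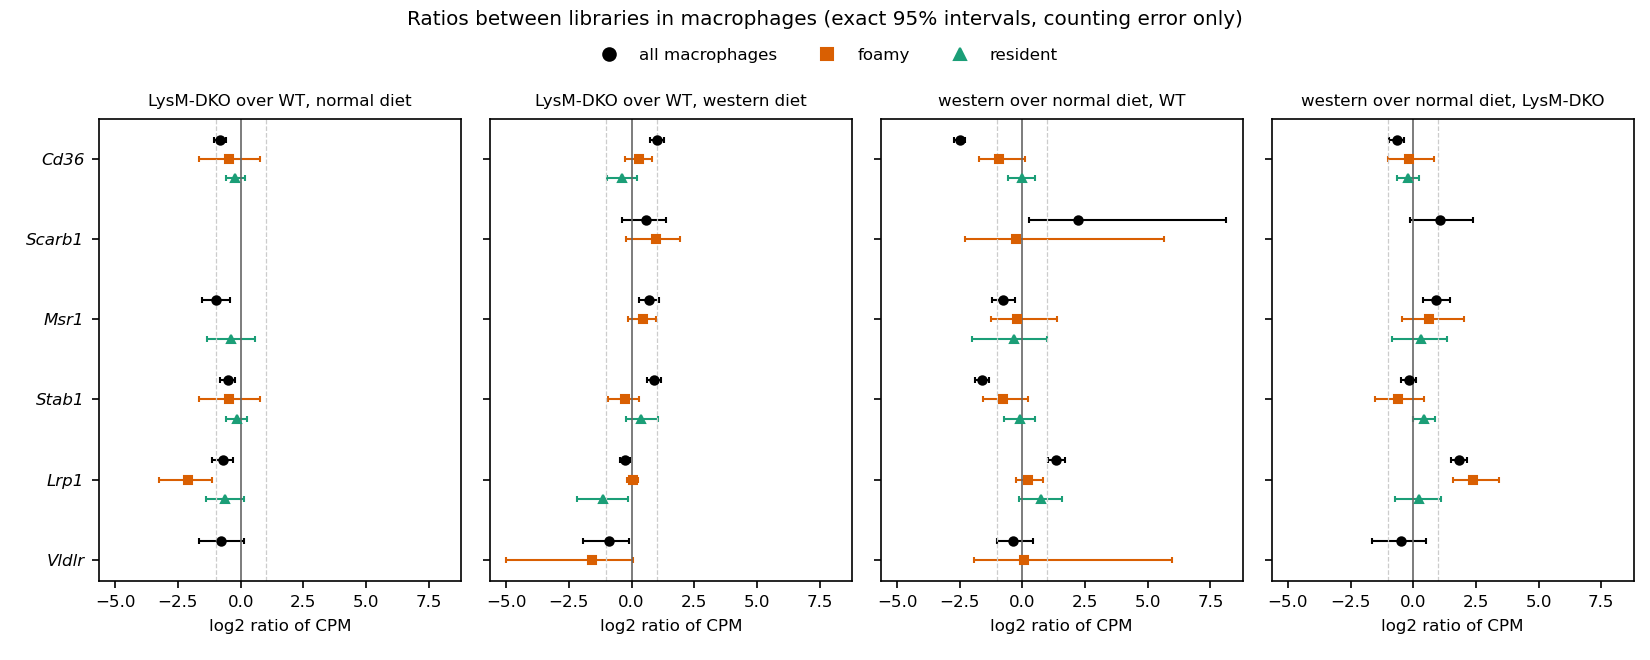
Log2 ratios of 6 receptors between genotypes and between diets, in all macrophages and in the foamy and resident subsets. Each panel is 1 ratio, points are log2 ratios of CPM, bars are exact binomial 95% intervals for counting error, and dashed lines mark 2-fold. For all macrophages Cd36 lies at -0.82, 1.03, -2.50 and -0.65 in the 4 ratios, and within resident macrophages at -0.21, -0.39, -0.02 and -0.19.

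For western over normal diet in WT, 7 receptors were measured in macrophages, 2 were past the fold upward (Scarb1 and Lrp1) and 3 downward (Cd36, Stab1 and Marco). Of all measured genes, 21% were past it upward and 8.71% downward. The log2 ratio was -2.50 for Cd36 (-2.73 to -2.27), -1.60 for Stab1 (-1.87 to -1.32), -0.78 for Msr1 (-1.22 to -0.30), 1.34 for Lrp1 (1.03 to 1.69) and 2.23 for Scarb1 (0.26 to 8.13), the last from 1 and 57 UMIs. Resident barcodes were 37.0% of macrophages on normal and 2.24% on western diet, and foamy barcodes 9.78 and 42.8%. Within resident macrophages the ratio was -0.02 for Cd36 and -0.10 for Stab1, both with intervals that include 0, and within foamy macrophages it was -0.93 and -0.79, from 9 and 402 barcodes, again with 0 inside the intervals. Within macrophages of neither marker set the ratio of Cd36 was -3.65. Fibroblast marker RNA (Dpt, Col1a1, Lum and Dcn) in macrophages was at 507 CPM on normal and 2621 CPM on western diet, and its part in the Lrp1 ratio was not tested.

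In LysM-DKO the diet ratios were 1.82 for Lrp1 (1.5 to 2.15), 1.08 for Scarb1 (-0.12 to 2.36), 0.92 for Msr1 (0.40 to 1.45), -0.19 for Stab1 (-0.50 to 0.12) and -0.65 for Cd36 (-0.95 to -0.37). Of 6 measured receptors 2 were past the fold upward, Lrp1 and Scarb1, and 0 downward, beside 7.11 and 6.46% of all genes. Lrp1 was on the upper side in both diet ratios. From normal to western diet in LysM-DKO macrophages, erythroid marker RNA was at 3146 and 1.42 CPM, Cd79b and Ighm together at 1123 and 52.7 CPM, and adipocyte marker RNA at 36.3 and 0 CPM, and its part in the ratios was not tested. Within foamy macrophages the Lrp1 ratio was 2.39 in LysM-DKO (1.60 to 3.42), where the normal-diet value rests on 16 barcodes, and 0.22 in WT. Diet, ApoE genotype, sex as read from sex-linked RNA and the version of the counting software cannot be told apart in any of these values.

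In endothelium several receptors had lower levels on western diet. For western over normal diet, Cd36, Scarf1 and Stab1 were past the fold downward in WT (log2 -1.59, -1.71 and -1.68) and in LysM-DKO (-2.30, -1.49 and -1.72), and Scarb1 was in LysM-DKO (-1.66). Vldlr was also past it downward in WT (-1.02), and Lrp1 upward (1.02). Marco was past it downward in WT as well, with 36 UMIs on normal diet, 30 of them in 1 barcode, and 0 on western diet. Of all genes, 8.55 and 8.75% were past the fold downward, and 5.91 and 3.45% upward. Capillary barcodes made up 123 of 732 endothelial barcodes in WT and 179 of 880 in LysM-DKO on normal diet, and 19 of 394 and 8 of 417 in the same order on western diet, and lymphatic barcodes numbered 42, 98, 5 and 13. The part of these numbers in the ratios was not tested. Within capillary barcodes Cd36 was at 2126 and 1138 CPM in WT and at 2567 and 4134 CPM in LysM-DKO. For LysM-DKO over WT on normal diet, Marco alone of the receptors measured in endothelium was past the fold (3.51% of genes upward, 1.05% downward). It was downward, with 0 UMIs in LysM-DKO and 36 in WT. On western diet Olr1 alone was (log2 -2.55, from 19 and 3 UMIs), downward like 3.68% of genes, with 3.03% upward.

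In smooth muscle Vldlr and Lrp1, its most abundant receptors, kept within the fold in all 4 ratios. Vldlr had genotype ratios of -0.43 on normal and 0.10 on western diet and diet ratios of -0.73 in WT and -0.20 in LysM-DKO. Lrp1 had genotype ratios of -0.20 and -0.42 and diet ratios of 0.35 and 0.13. The low receptors of smooth muscle had larger ratios. Endothelial marker RNA in smooth muscle (Kdr, Tie1, Emcn and Egfl7, all detected) was at 5.57, 22.1, 3.20 and 0.705 CPM and macrophage marker RNA at 8.64, 33.1, 25.5 and 3.30 CPM, and its part in these ratios was not tested. For LysM-DKO over WT on normal diet Cd36, Olr1 and Stab1 were past the fold upward (log2 1.55, 2.88 and 1.31), beside 6.48% of genes upward and 0.975% downward. On western diet the same 3 were past it downward (-1.01, -4.65 and -1.42), beside 9.52% of genes downward and 1.92% upward. Msr1 was past it downward there too, from 18 UMIs in WT/ApoE-/- and 4 in LysM-DKO/ApoE-/-. For western over normal diet in WT, Cd36 was past it downward (-1.15) and Olr1 upward (2.69), beside 9.25 and 5.43% of genes. Msr1 was past it upward in that ratio, from 18 UMIs on western and 2 on normal diet. In LysM-DKO Cd36, Olr1 and Stab1 were past it downward (-3.72, -4.83 and -2.51), beside 17% of genes downward and 2.72% upward. The LysM-DKO normal diet library was thus the highest in smooth muscle for all 3, at 25.5 CPM for Cd36, 2.04 CPM for Olr1 and 6.98 CPM for Stab1.

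In fibroblasts Lrp1, their most abundant receptor, had ratios between -0.22 and 0.12 in the 4 comparisons. Cd36 was on the upper side of the genotype ratio on both diets. On normal diet it had 8 UMIs in 8 barcodes of WT and 55 in 37 barcodes of LysM-DKO (log2 2.34, 1.34 to 3.70). The western-diet value (2.95, 1.58 to 5.06) rests on 4 UMIs in 3 of 634 barcodes and 29 UMIs in 3 of 654, so the share of barcodes with a UMI was alike and few barcodes carry the ratio. Of all genes, 2.71% were past the fold upward and 1.57% downward on normal diet. The western-diet shares were 3.11 and 3.7%, and there Olr1 was past it downward (-1.56). For western over normal diet 0 receptors were past the fold in WT, beside 9.59% of genes upward and 7.72% downward, and Stab1 was past it downward in LysM-DKO (-1.52, from 20 and 6 UMIs), beside 5.93 and 5.63%. Adipocyte marker RNA in fibroblasts was at 1.41, 22.1, 0 and 0 CPM, and its part in the Cd36 ratios was not tested.

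Among the related genes measured in macrophages, Mrc1 (1087, 1023, 253 and 752 CPM), Cxcl16 (350, 355, 561 and 529 CPM) and Cd68 (304, 299, 540 and 496 CPM) were the highest of the other scavenger receptors. Mrc1, a mannose receptor of resident macrophages, had its lowest level in the WT/ApoE-/- western diet library, as Cd36 and Stab1 did. In the LDL receptor family and its partners the highest were Mylip (528, 388, 193 and 224 CPM), Lrp6 (113, 107, 63.2 and 96.9 CPM) and Lrpap1, the chaperone of Lrp1 (50.3, 63.6, 178 and 104 CPM). Between diets, Gipc1, an adaptor of the receptor family's tails, was past the fold upward in both WT and LysM-DKO (log2 1.12 and 1.84). Among lipid handling genes the highest were Fabp5 (79.6, 929, 2130 and 1798 CPM), Npc2 (798, 719, 875 and 929 CPM) and Plin2 (507, 357, 529 and 587 CPM). Abcg1 (3.65 and 2.59) and Lpl (3.21 and 1.98) were past the fold upward in both diet ratios, and Dgat1, which makes triglyceride, downward (-1.11 and -1.51). Of the 15 lipid handling genes, 3 (upward) and 2 (downward) were past the fold by diet in WT, near the 21 and 8.71% of all genes, 2 and 2 of 14 in LysM-DKO, 2 and 0 of 15 by genotype on normal diet, and 0 and 1 of 15 by genotype on western diet, where the shares over all genes were those given above. Of the regulators, Cebpb was at 601, 686, 448 and 828 CPM and Klf4 at 750, 493, 254 and 473 CPM. Lyz2 was past the fold downward in LysM-DKO on both diets (-1.92 and -2.37), and no gene of the other 4 lists was past it in the same direction by genotype on both diets.

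Receptors were also counted per cell. After each barcode was thinned to 1000 UMIs, Cd36 was seen in 34.8, 26.4, 6.60 and 22.2% of macrophages, and in 0.813, 1.55, 0 and 0% of T cells, which should lack it. Of T cell barcodes, 62.1, 71.3, 23.2 and 48.5% also met the threshold of another class, so they are a mixed background. The zeros are 0 of 315 and 0 of 33 T cells, which allow shares of up to 0.952 and 9.09%. Median depths before thinning were 4708.5, 4715, 2796 and 4025 UMIs in macrophages and 4299, 3721, 2244 and 2509 UMIs in T cells. Before thinning the shares were 68.5, 50.5, 11.2 and 45.9% of macrophages and 2.03, 5.43, 0.317 and 0% of T cells. Of thinned resident macrophages, 38.2, 39.1, 52.4 and 41.0% had a Cd36 UMI, against 11.1, 12.5, 4.98 and 8.89% of foamy ones. Lrp1 was seen in 6.52, 8.65, 29.6 and 20.7% of thinned macrophages and in 3.66, 6.05, 5.08 and 9.09% of T cells. Any of the 9 receptors was seen in 56.5, 51.0, 45.4 and 59.3% of thinned macrophages, and at least 2 in 13, 14.4, 8.20 and 20%. For any receptor fibroblasts were close to this, at 55.6, 52.2, 51.3 and 56.3%, and endothelium was at 47.8, 47.2, 43.7 and 36.2%. Smooth muscle was lower, at 32.5, 29.9, 33.6 and 28.3%, as were B and T cells. At least 2 receptors were seen in 4.94, 3.86, 4.89 and 4.28% of fibroblasts and 10.4, 8.41, 4.57 and 4.56% of endothelium.

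Over the 24 library-by-class sums, each receptor's profile was compared with 6239 other genes by Pearson r of log2(CPM + 10). These sums share libraries and depth, and r is given as a description. Cd36 ran most closely with Cd93 (r = 0.892), Lyve1 (0.876) and Sgms1 (0.840), and Stab1 with Tanc2 (0.948), Lyve1 (0.934) and F13a1 (0.930). Msr1 ran with Igsf6 (0.994), Fcgr3 (0.991) and C3ar1 (0.99). Scarf1 ran with the endothelial genes Adgrf5 (0.931), Egfl7 (0.917) and Mmrn2 (0.915), and Scarb1 with Ptprb (0.766), Rab11a (0.739) and Gng11 (0.728). Lrp1 ran with Timp2 (0.961), Anxa2 (0.932) and Cebpd (0.926), Vldlr with Dact3 (0.960), Arid5b (0.958) and Agbl3 (0.955), and Olr1 with Gda (0.798), C4b (0.798) and Nrp2 (0.791). Between receptors r was 0.911 for Cd36 and Stab1, 0.892 for Msr1 and Stab1, and 0.774 for Scarb1 and Scarf1.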

How the data were processed

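UMI counts per gene and barcode were deposited by the authors for 4 aorta libraries of 1 group each. Per the file headers, Cell Ranger 6.0.1 made the normal-diet and 6.1.2 the western-diet libraries, so this version goes with diet. The submitters' processing notes also list Seurat 4.1.0 and mm10, and the cell calling and strand setting are not given in the sources used here. The members and the gene lists were chosen with earlier results of these data known.

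Barcodes past a minimum of 1000 UMIs and under a limit of 10% on the mitochondrial share were classed by the first threshold met (5 C1q UMIs, 3 fibroblast or smooth muscle UMIs, otherwise 2). UMIs were summed per library and class with Python 3.11.15, numpy 2.4.6, scipy 1.17.1 and pandas 2.3.3, and sums of at least 10 barcodes were tested in edgeR 4.0.16 (R 4.3.3) by the quasi-likelihood test with TMM scaling, filterByExpr and a library term. Class totals in macrophages were 477498, 1100823, 3911134 and 701811 UMIs. Both fits were tested on simulated counts with known changes. Genotype and diet were described by ratios without a test.

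All 9 receptors are named. For each with at least 100 UMIs, the 3 genes of highest r among genes with a mean of at least 20 CPM are named, and from each list the 3 genes highest in macrophages and any past the fold in both ratios of a kind; some genes that the rule names are not reported here. Alternatives were other UMI and mitochondrial thresholds, single-class barcodes, equal weight for each barcode, DESeq2 1.42.0, no filter on low counts, no library term, other subset and UMI minimums, median-ratio scaling, macrophage subsets, and leaving out each library. Locations are from GENCODE M21 on GRCm38, in which 99.6% of the deposited gene IDs were found, and promoter sequences are from RefSeq, with 6 of 9 receptors matched.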

Additional observations from a re-analysis of the deposited data

Results flagged for a closer look

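Genotype ratios pointed in opposite directions on the 2 diets for several receptors, each with a counting interval clear of 0 on both diets; the difference between the diets was not tested, because each group is 1 library. In macrophages the genotype ratio (log2, LysM-DKO against WT) was -0.82 on normal and 1.03 on western diet for Cd36, -0.99 and 0.71 for Msr1, and -0.52 and 0.90 for Stab1. Resident barcodes made up 37.0, 30.8, 2.24 and 28.9% of macrophages in the 4 libraries. Within resident barcodes the Cd36 ratios were -0.21 and -0.39 and those of Stab1 -0.17 and 0.38, all with intervals that include 0. Resident ratios cover only part of the macrophages. Barcodes of neither marker set made up 48.9, 56.7, 47.9 and 31.9%. Among these, some receptors were past 2-fold by genotype on each diet, Cd36 on western diet being one of them. The part of the make-up in the ratios was not tested.

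In smooth muscle the ratios on normal and western diet were 1.55 and -1.01 for Cd36, 1.31 and -1.42 for Stab1, 2.88 and -4.65 for Olr1, and -0.43 and 0.10 for Vldlr. Of all genes in smooth muscle, 6.48% were past 2-fold upward on normal diet and 9.52% downward on western diet. The levels in the 4 libraries were 8.68, 25.5, 3.90 and 1.93 CPM for Cd36, 2.81, 6.98, 3.29 and 1.22 CPM for Stab1 and 0.259, 2.04, 1.80 and 0.0622 CPM for Olr1, well under those of macrophages or endothelium for the first 2. In smooth muscle, endothelial marker RNA was at 5.57, 22.1, 3.20 and 0.705 CPM and macrophage marker RNA at 8.64, 33.1, 25.5 and 3.30 CPM. Marker RNA of neutrophils was at 7.09, 190, 13.2 and 2.14 CPM and that of adipocytes at 0.691, 31.0, 0.175 and 0.290 CPM. The part of this RNA in the ratios was not tested.

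Barcodes that met no class threshold also held Lrp1. Its level there was 477 CPM in WT/ApoE-/- and 500.3 CPM in LysM-DKO/ApoE-/- on western diet, above the 173 and 182 CPM of the normal-diet libraries. In these barcodes fibroblast marker RNA was at 2258, 3053, 15977 and 19685 CPM and chondrocyte marker RNA at 10.4, 48.5, 4385 and 6496 CPM in the 4 libraries, and its part in the Lrp1 values was not tested.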

How the results depend on the processing

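No paired analysis was possible because each group is 1 library and the groups share fewer than 2 replicate numbers. Members highest in macrophages by median level numbered 4, and 2 in single-class barcodes, where Cd36 and Olr1 were highest in endothelium. The log2 difference of Cd36 between macrophages and endothelium turned to -0.54 there. The 68 class calls ranged from 56 to 64 with 1 library left out, and members called between foamy and resident macrophages from 2 to 3. Of the 68 calls 63 were kept with DESeq2 and 56 without the library term. In single-class barcodes 50 of 55 testable calls were kept. Over all genes, 263 were higher and 353 lower in foamy macrophages, 96 and 194 with DESeq2, 121 and 197 without the WT/ApoE-/- western diet library.

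Counts of receptors past 2-fold in macrophages moved with most settings. By genotype on normal diet the count was 1, and 0 at 2000 UMIs, 2 with equal weight, 2 with median-ratio scaling, 0 with a minimum of 50 UMIs, 3 without a minimum, 0 in resident and 5 in neither-set barcodes. On western diet it was 1, and 0 at 2000 UMIs, 0 in single-class, 3 with equal weight, 3 without a minimum and 3 in neither-set barcodes. By diet in WT it was 5, and 3 in single-class, 0 in foamy and 0 in resident barcodes. In LysM-DKO it was 2, and 1 in single-class barcodes, 1 with median-ratio scaling, 1 with a minimum of 50 UMIs, 1 in foamy, 0 in resident and 1 in neither-set barcodes. Subset counts rest on fewer barcodes. The ratio of Cd36 by genotype on western diet was -0.39 in resident barcodes, and that of Scarb1 by diet in WT -0.27 in foamy ones. The cause of the other shifts was not tested. Depth limits Olr1 and Scarf1, and Marco rests on few barcodes.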
